A study of Rattus norvegicus with 8 samples.

Results

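EGR1 (early growth response 1) is a zinc finger transcription factor and a classic immediate early gene. Its transcript is low in resting cells, and it rises soon after growth factors, depolarisation or stress activate the kinase ERK. Active ERK phosphorylates ETS-family cofactors that sit with serum response factor on CArG boxes of the EGR1 promoter. In pituitary cells EGR1 is best known in gonadotrophs, where it is needed for luteinising hormone. The study compared how the dopamine agonists bromocriptine (BRC) and cabergoline (CAB) act on cells of prolactin-secreting tumours.

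RNA was profiled on 8 Affymetrix rat genome arrays, 4 of GH3 cells and 4 of MMQ cells, with 1 array for each condition and no replicate. Both are lines from rat pituitary tumours, GH3 secreting growth hormone and prolactin and MMQ prolactin alone, and they were grown in different media. Each line was measured untreated (control), under BRC, under CAB and under both drugs together (CAB+BRC). The dose of a drug given alone was 50 μM, and 48 h of treatment is stated for the GH3 control and BRC arrays and for the MMQ control and CAB arrays. The time is not stated for CAB in GH3 or BRC in MMQ cells, nor are time and doses for the combinations. The drugs were dissolved in DMSO and then diluted in serum-free medium, and it is not stated whether the controls received DMSO. RNA came from whole cultures, so fewer cells with EGR1 and less EGR1 RNA per cell cannot be told apart.

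EGR1 is 1 of 28295 probe sets in the deposited values. It was chosen by its measured ratio of GH3 BRC to GH3 control, because the names of the rows do not go with the values. The fold that the study prints for EGR1 was met by this probe set alone (to within 1e-06 of its value), and the nearest ratio of any other probe set was 0.000558 of its value away. The row that the platform annotation names Egr1 held another pattern, with intensities between 2274 and 3796, and it was lower with BRC (2274) than in the control (3059) of GH3 cells. Over 2778 pairs of probe sets with the same annotated gene name values correlated across the arrays with a median r of 0.00999, and 1000 re-pairings gave medians of -0.03 to 0.057. The probe set named Prl was at 9.71 to 16.2 in these prolactin-secreting lines, so the labelled cell type could not be checked against its markers. The identity of EGR1 therefore rests on the printed fold, other members of the ERK pathway could not be named, and differences that use the GH3 BRC or GH3 control array are given as a description with no test. Both arrays still enter the spread of the fit to all 8 arrays, and its results in MMQ cells are given without them as well.

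Rat Egr1 lies on chromosome 18 of the GRCr8 assembly, from 26737078 to 26740877 on the plus strand. The 250 bases before its start are shown because they hold CArG boxes, a kind of site through which ERK signalling is known to reach this gene. Bases further upstream were not searched. They run 5′ to 3′ at chr18:26736828-26737077 (RefSeq, plus strand), with the CArG boxes in capitals.
Egr1 upstream sequence: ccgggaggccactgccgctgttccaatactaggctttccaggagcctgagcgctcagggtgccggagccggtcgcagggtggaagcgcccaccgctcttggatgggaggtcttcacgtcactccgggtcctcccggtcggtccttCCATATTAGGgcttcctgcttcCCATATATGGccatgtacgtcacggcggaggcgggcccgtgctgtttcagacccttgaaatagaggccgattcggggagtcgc
The window held 2 CArG boxes, at 105 to 96 and at 83 to 74 bases before the gene start. At least 1 CArG box was found in 1.5% of the 33469 rat promoter windows of this length, and at least 2 in 7 of them (0.0209%). ETS cores, searched as GGAAG on both strands, were found 4 times, and 1 of them overlaps the far end of each CArG box. At least 4 such cores were in 3.5% of windows. Half-sites of the cyclic AMP response element, searched as TGACG on both strands, were found 2 times, which 3.98% of windows matched or exceeded. These matches describe the sequence, and no binding was measured on it here.

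In GH3 cells the EGR1 intensity was 413 untreated, 2037 under BRC, 791 under CAB and 2390 under CAB+BRC. Both arrays with BRC were above both arrays without it. In MMQ cells it was 256 untreated, 521 under BRC, 42.4 under CAB and 49.3 under CAB+BRC. Both arrays with CAB were below both arrays without it. In each line the 4 arrays thus fell into a high and a low pair, set apart by BRC in GH3 cells and by CAB in MMQ cells. In GH3 cells the order of BRC and control was fixed by the choice of EGR1, and only CAB+BRC above CAB is free of it.

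**Figure D1:**
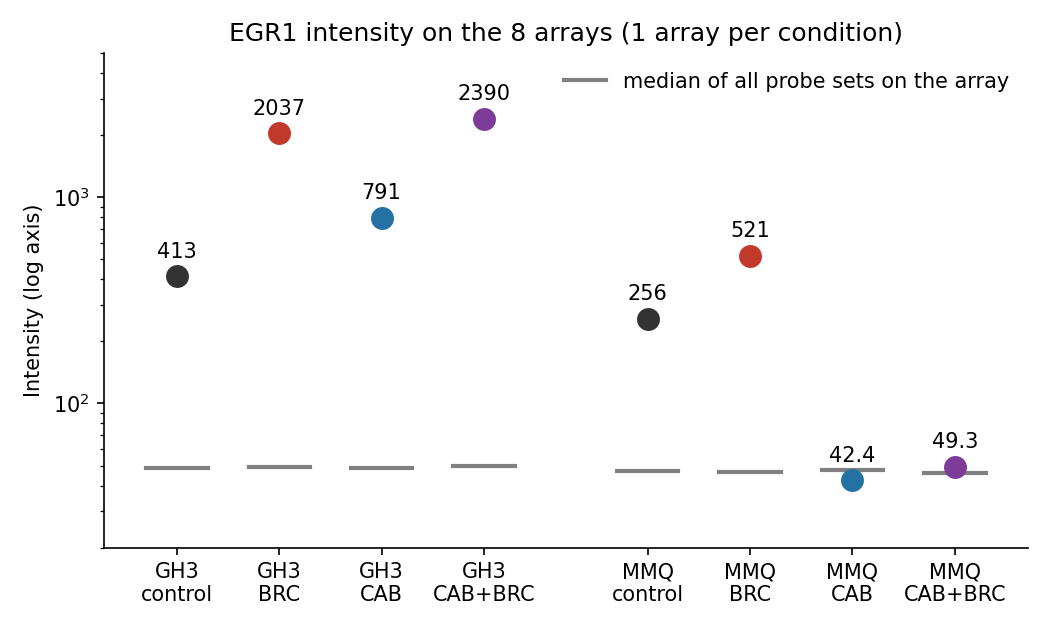
Intensity of EGR1 on a log axis for the 8 arrays, 1 point per array, with the median of all 28295 probe sets of that array as a grey line. The GH3 arrays with BRC are highest (2037 and 2390), and the MMQ arrays with CAB (42.4 and 49.3) lie next to their array medians (47.6 and 45.9).

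The array medians lay between 45.9 and 49.9, so the levels can be set side by side. In the GH3 control EGR1 was brighter than 87.6% of all probe sets, and with CAB+BRC than 98.8%. In the MMQ control it was brighter than 81.5%, and with CAB than 47.6%, where its intensity was 0.891 times the array median. No detection calls were used, and whether EGR1 in MMQ cells with CAB was above background is not known. A fold against those arrays may thus be smaller than the change in RNA.

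Ordered from the highest, the levels were GH3 CAB+BRC, GH3 BRC, GH3 CAB, MMQ BRC, GH3 control, MMQ control, MMQ CAB+BRC and MMQ CAB. With 1 array per condition there is no replicate spread to set the gaps against. For the neighbours that do not involve the arrays that chose EGR1, the spread in a limma fit without those arrays gave a 95% half-width of 0.71 for the log2 difference of 2 arrays. That spread, a standard deviation of 0.201, is drawn more from other probe sets than from EGR1. The residual standard deviation of EGR1 alone was 0.403. The gap from the MMQ control down to MMQ CAB+BRC (2.35) was larger. The gaps from GH3 CAB to MMQ BRC (0.60) and from MMQ CAB+BRC to MMQ CAB (0.21) were not beyond it. The remaining gaps, all next to GH3 BRC or the GH3 control, were 0.23 to 1.36 and were not set against a spread. From the highest to the lowest array the ratio was 56.3, a log2 span of 5.78, the 109th widest of all probe sets. The median span of all probe sets was 0.69.

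The log2 difference between arrays was taken on intensity plus 1 for each of the 6 pairs within a line, and EGR1 was ranked among all 28295 probe sets in the direction in which it moved. Pairs of a line share arrays, so their ranks are not independent of each other. At least 2-fold differences of EGR1 were found in 9 of the 12 pairs, 4 higher and 5 lower. In the pair that chose it, GH3 BRC against control, the log2 difference was 2.30, the 3rd highest change, where 0.951% of all probe sets were at least 2-fold higher. Of the other pairs in GH3 cells only CAB+BRC against CAB is free of the arrays that chose EGR1, and the ranks in the remaining 4 are partly set by the choice.

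BRC was measured again in GH3 cells by CAB+BRC against CAB, which has no array in common with the pair that chose EGR1. The intensity was 2390 against 791, 3.02-fold higher, and this was again the 3rd highest change of all probe sets. Only 0.0389% of probe sets, 11 of 28295, were at least 2-fold higher in that pair. CAB+BRC against the GH3 control gave 5.79-fold, the 2nd highest change, with 0.873% of probe sets at least 2-fold higher. CAB alone in GH3 cells left EGR1 at 791 against 413, 1.91-fold higher and the 457th highest change. CAB added to BRC gave 2390 against 2037, 1.17-fold higher and the 3387th highest change. In GH3 cells EGR1 was 2.58-fold lower with CAB than with BRC, and 0.0813% of probe sets were at least 2-fold lower, with EGR1 the 4th lowest.

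In MMQ cells BRC alone gave an EGR1 intensity of 521 against 256, 2.03-fold higher, the 33rd highest change. At least 2-fold higher were 0.12% of probe sets, 34 in all, and EGR1 was close to that limit. With CAB present BRC gave 49.3 against 42.4, 1.16-fold higher and the 5349th highest change. CAB in MMQ cells gave a level 6.04-fold lower than the control, the 16th lowest change, with 1.37% of probe sets at least 2-fold lower. CAB+BRC was 5.2-fold below the control, the 24th lowest, with 1.13% at least 2-fold lower. CAB+BRC against BRC, which shares no array with CAB against control, gave a level 10.6-fold lower (49.3 against 521). No other probe set was lower in that pair by as much, and 1.09% were at least 2-fold lower. CAB against BRC likewise put EGR1 at the lowest place of all 28295, 12.3-fold lower with CAB, with 1.89% at least 2-fold lower.

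**Figure D2:**
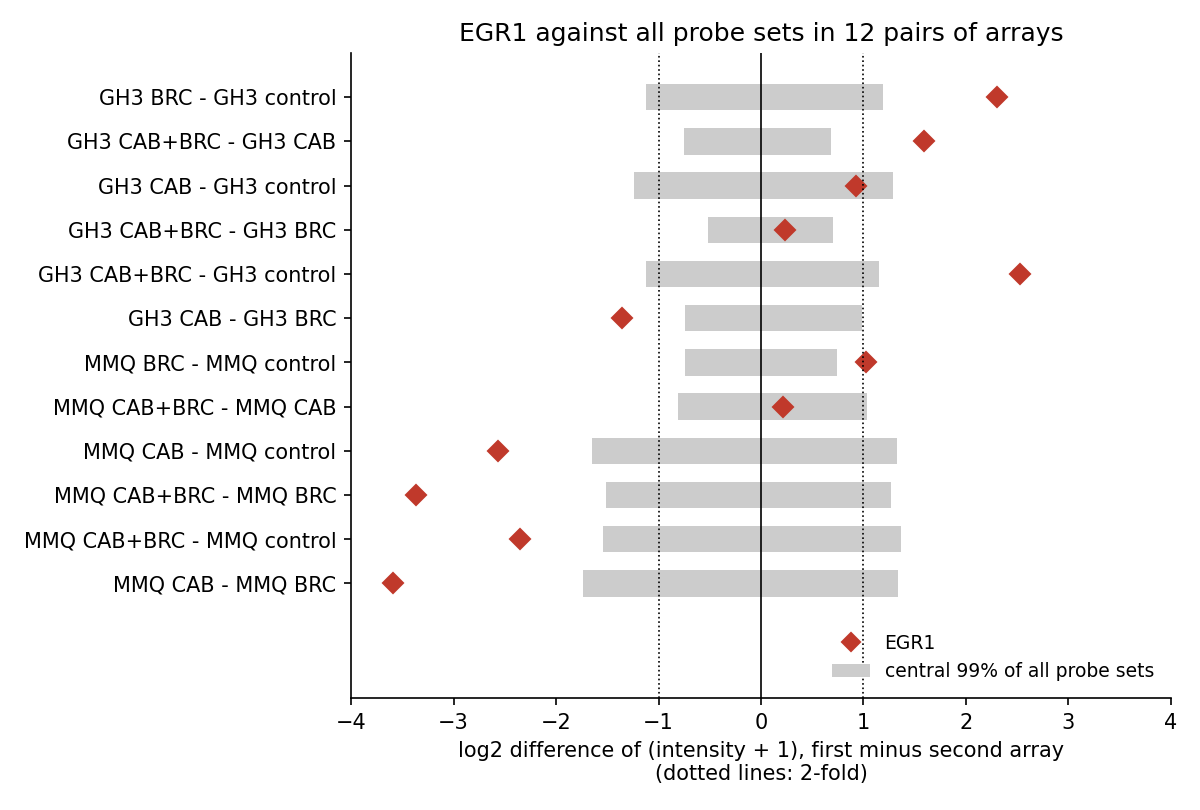
Log2 difference of EGR1 (red) in the 6 pairs of arrays within each line, first array minus second, with the range that holds the central 99% of all 28295 probe sets in grey. EGR1 lies outside the grey range in 9 of the 12 pairs, and inside it for GH3 CAB against control, GH3 CAB+BRC against BRC and MMQ CAB+BRC against CAB.

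The repeat of BRC in GH3 cells (CAB+BRC against CAB) and CAB in MMQ cells (CAB against control) use 4 different arrays. EGR1 was at least 2-fold higher in the former and at least 2-fold lower in the latter, as were 3 probe sets in all, EGR1 included. At least 2-fold higher with BRC in both pairs of GH3 cells and at least 2-fold lower with CAB in both pairs of MMQ cells were 2 probe sets, EGR1 and another without a usable name. The pair that chose EGR1 is part of that last count.

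**Figure D3:**
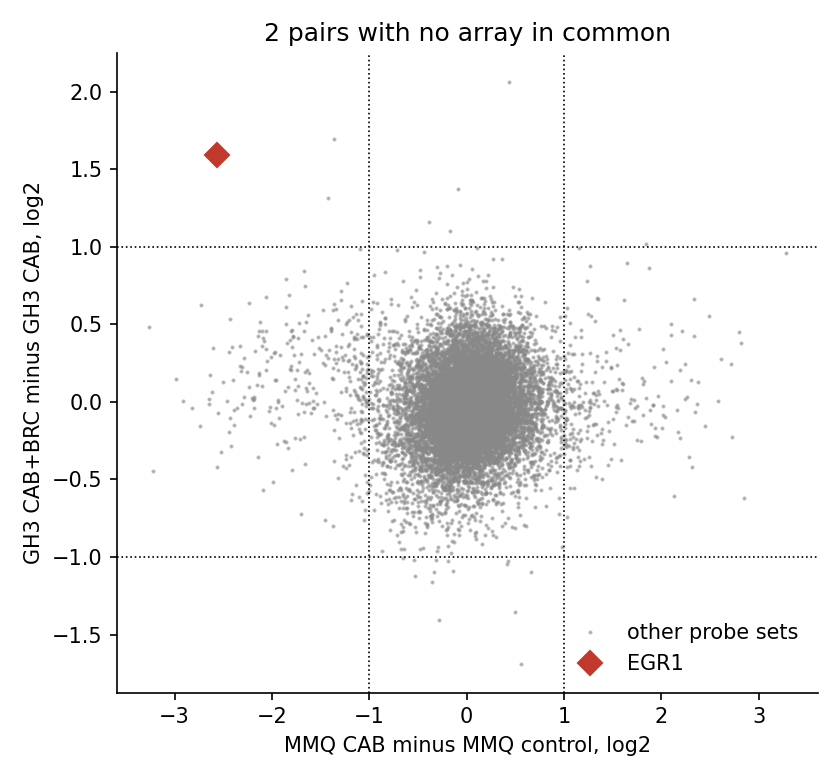
Log2 difference of MMQ CAB minus MMQ control (horizontal) against GH3 CAB+BRC minus GH3 CAB (vertical) for the 14147 brighter probe sets, with EGR1 in red and dotted lines at 2-fold. EGR1 lies at -2.57 and 1.59, apart from the cloud in the upper left, where 3 probe sets pass both lines.

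To give the drug effects an error, a limma model with additive effects of CAB and BRC, separate for each line, was fitted to all arrays. It has 2 residual degrees of freedom, 1 per line, given by how far the combination lies from the sum of the single drugs on the log2 scale. Moderation across the 14147 probe sets brighter than the median adds to them. It also lowered the residual standard deviation used for EGR1, from 0.379 for EGR1 alone to 0.245. Other probe sets gave 4.47 degrees of freedom against the 2 of EGR1, so the standard errors rest more on them than on EGR1. A true interaction of the drugs is thus counted as spread. The log2 effect of CAB on EGR1 in MMQ cells was -2.97 (standard error 0.245, 95% interval -3.56 to -2.38, adjusted p = 0.00475 in limma). It was negative in both pairs of arrays behind it, and 2.32% of tested probe sets were called lower. Leaving out both arrays that chose EGR1 cannot change the size of an effect in MMQ cells, and the call was kept (standard error 0.201, adjusted p = 0.00156 in limma). In that fit 718 of 14147 probe sets were called lower, against 328 with all arrays. By p EGR1 was 123rd there and 32nd with all arrays, so the smaller adjusted p goes with more calls over all probe sets. Leaving out 1 GH3 array gives this same fit. Without 1 of the MMQ arrays the effect was -3.37 or -2.57.

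CAB and BRC both carry an ergoline ring system, on which BRC has a bromine atom and a cyclic peptide side chain and CAB an acylurea side chain. At 50 μM in MMQ cells the log2 difference in EGR1 of CAB minus BRC was -3.59 (standard error 0.346, interval of 95% confidence -4.42 to -2.76). In the additive model this is the MMQ CAB array minus the MMQ BRC array, 1 sample each, both assumed to vary like the rest. It passed in limma at an adjusted p of 0.0164, with 1.1% of tested probe sets called lower, and at 0.00471 without the arrays that chose EGR1. Without those arrays 612 probe sets were called lower, against 155 with all arrays, and EGR1 was 94th by p instead of 19th. This was the only pair of compounds tested. The treatment time in the MMQ BRC array is not known, so a difference in time cannot be told apart from the difference in drug. The same holds for cell death, which the paper reports as higher with CAB than with BRC in MMQ cells at this dose. The call was lost without the MMQ BRC array (-2.78, adjusted p = 0.232 in limma) and without the MMQ CAB array (-4.39, adjusted p = 0.0994 in limma), where the difference comes through the CAB+BRC array.

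The effect of BRC on EGR1 in MMQ cells was 0.62 (95% interval 0.03 to 1.20) and did not pass (adjusted p = 0.411 in limma). For this effect limma called 0% of tested probe sets higher, with 1663 of 14147 at an unadjusted p under 0.05. The estimate is the mean of 1.02 without CAB and 0.21 with it. The arrays behind the 0.21 lie at their array medians. EGR1 may not be above background there, which could make that difference smaller and was not tested. Without the arrays that chose EGR1 the adjusted p was 0.19 in limma. The interval contains effects of more than 2-fold upwards, so it does not show that BRC left EGR1 as it was.

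In GH3 cells CAB gave log2 differences of 0.93 without BRC and 0.23 with it, a mean of 0.58. In MMQ cells the same differences were -2.57 and -3.37. EGR1 was thus higher with CAB in both pairs of GH3 cells and lower in both pairs of MMQ cells, with means that lie -3.55 apart on the log2 scale. Both GH3 differences lay inside the central 99% of all probe sets, and both MMQ differences outside it. Both pairs of GH3 cells use an array that chose EGR1, so neither the mean in GH3 cells nor its distance from that in MMQ cells is given a test.

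The BRC effect in GH3 cells was fitted on the 6 arrays other than the GH3 control and BRC arrays, with its 1 residual degree of freedom taken from MMQ cells. GH3 cells were thus assumed to vary like MMQ cells. Moderation took the residual standard deviation of EGR1 in this fit from 0.403 to 0.201. The log2 effect of BRC with CAB present was 1.59 (standard error 0.284, 95% interval 0.88 to 2.31). It did not pass over all tested probe sets (limma's adjusted p = 0.483), although its unadjusted p of 0.0019 in limma was the 26th smallest. Called higher were 0%, with 1412 at an unadjusted p under 0.05. It exceeded the BRC effect in MMQ cells by 0.98 (95% interval 0.10 to 1.85, adjusted p = 0.227 in limma), again with 0% called higher and 2756 at an unadjusted p under 0.05. The MMQ effect is the mean of 1.02 without CAB and 0.21 with it, while the GH3 effect was measured with CAB only, so their bases differ. The MMQ arrays with CAB, where EGR1 may not be above background, enter both the MMQ effect and the spread of this fit. A larger BRC effect in GH3 than in MMQ cells was therefore not shown on these 6 arrays.

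**Figure D4:**
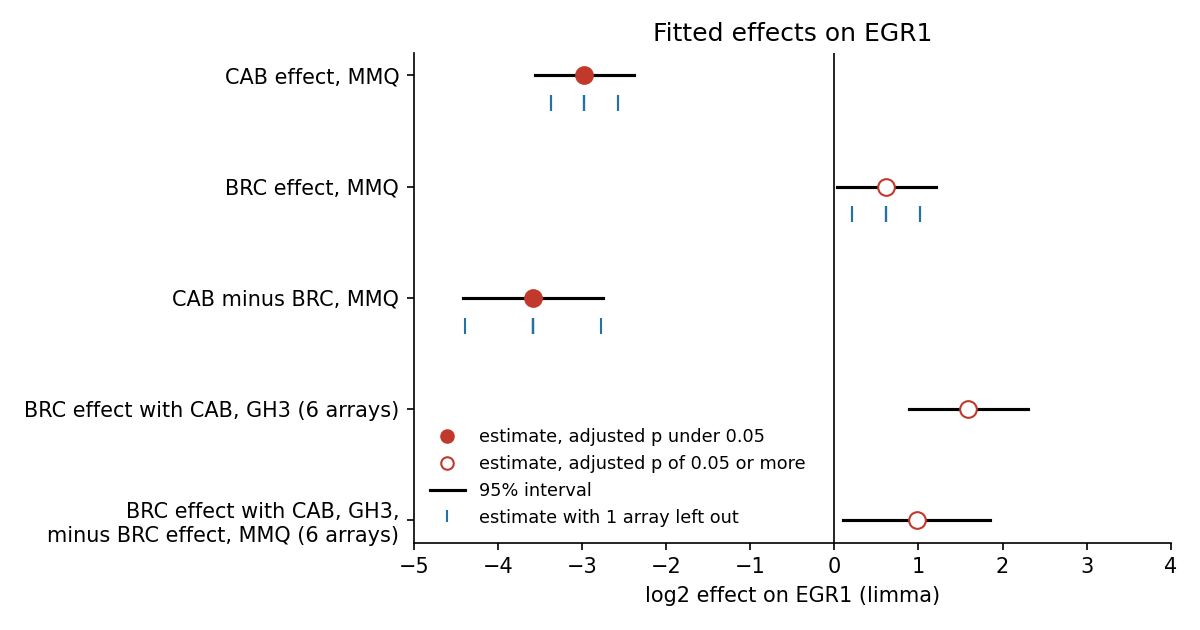
Log2 effects on EGR1 in limma with their 95% intervals (lines), filled where the adjusted p was under 0.05. Blue ticks are the estimates with 1 array left out, which for CAB in MMQ cells lie between -3.37 and -2.57 and for the BRC effect and CAB minus BRC in MMQ cells do not cross 0 either. No fit with an array left out was made for the lower 2 effects.

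Whether the drugs acted on EGR1 independently was described by the interaction, the BRC difference with CAB minus the BRC difference without CAB. It was -0.70 in GH3 cells, where BRC and CAB alone would add up to an intensity of 3896 and 2390 was measured. It was -0.81 in MMQ cells, with 87 from the sum of both drugs and 49.3 measured. Both MMQ arrays with CAB lie at their array medians, where a floor of the signal could by itself make this value negative, so its size cannot be interpreted further. As measured, the combination lay in both lines below the sum of the single drugs, by 1.63-fold and 1.75-fold. The interaction is not tested, because 4 arrays with 4 conditions leave no residual, and in GH3 cells it includes the arrays that chose EGR1. Among all probe sets the GH3 value ranked 1186th from the lowest (4.19%) and the MMQ value 205th (0.725%), against standard deviations over all probe sets of 0.409 and 0.302. The MMQ rank moved from 56 with a pseudocount of 16 to 475 after quantile normalization. Neither reached 2-fold. Interactions as low as that of EGR1 in both lines were found in 18 probe sets (0.0636%), EGR1 included. This count is a description only. Its GH3 part holds the ratio that chose EGR1, and its MMQ part the arrays where a floor is possible.

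**Figure D5:**
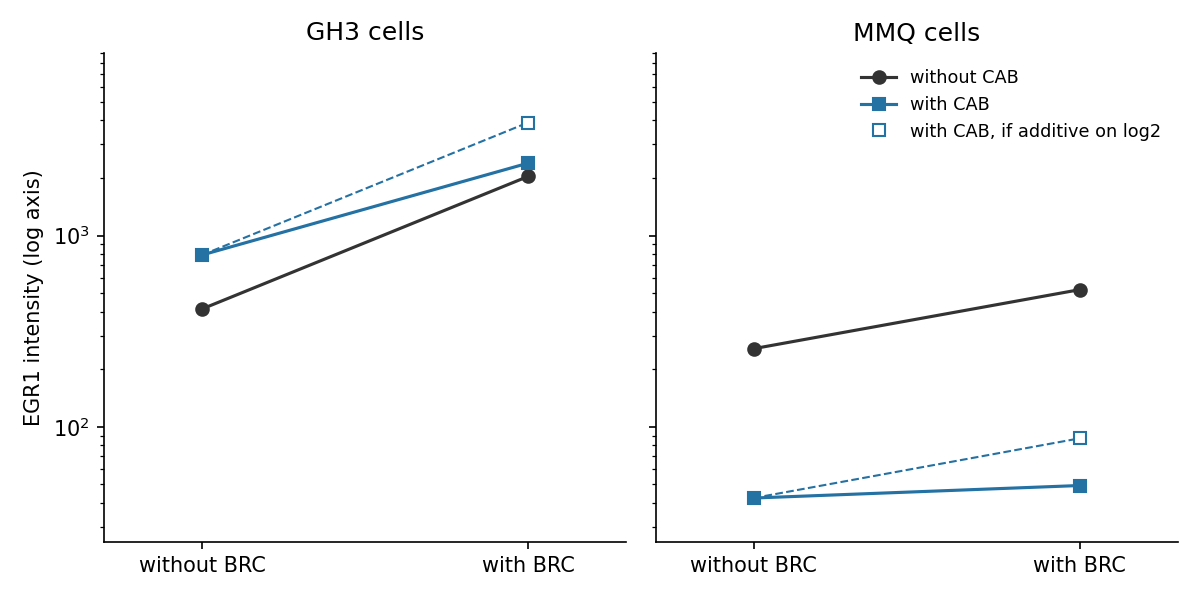
EGR1 intensity on a log axis without and with BRC, in the absence (black) and presence (blue) of CAB, for GH3 cells on the left and MMQ cells on the right. Open squares mark the CAB+BRC level if both drugs added on the log2 scale (3896 and 87), above the measured 2390 and 49.3.

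EGR1 was brighter in GH3 than in MMQ cells under each of the 4 treatments. The log2 difference was 0.69 in the controls, 1.97 under BRC, 4.19 under CAB and 5.57 under both drugs. Its mean over the treatments was 3.10. Single arrays of 4 treatments are not replicates, and the GH3 arrays of the first 2 chose EGR1, so no test is given. Among all probe sets the difference ranked 3803rd in the controls and 33rd with CAB+BRC. The distance between the lines was therefore wider with CAB than without it, as the CAB differences given above show.

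The pattern of EGR1 over the 8 arrays was compared with the 19 other genes that could be identified by their printed folds, which the study chose on these arrays. The likeness is Pearson's r of log2 values, and the 8 points share 2 cell lines, so a gene that differs between the lines can correlate without responding to a drug in the same way. KCNMA1, a calcium-activated potassium channel, was most like EGR1 (r = 0.914), followed by the B cell signalling adaptor BLNK (r = 0.824), and LGALS9, a galectin (r = 0.819). All of them were listed by the study as higher with BRC than in the control of GH3 cells, the pair that chose EGR1. Both arrays of that pair enter r, so part of this likeness follows from the shared choice. KCNMA1 was lower with CAB than in the MMQ control, as EGR1 was, at 26.5 against 122. With BRC alone it was also below that control, at 62.9, where EGR1 was above its own. In GH3 cells it was at 233 with CAB, close to 262 with BRC, whereas EGR1 was 2.58-fold apart between these drugs. BLNK and LGALS9 were at most 15.4 in MMQ cells, so their likeness to EGR1 comes from the difference between the lines and from the GH3 control.

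Most unlike EGR1 were MVD, an enzyme of the mevalonate pathway (r = -0.901), the chemokine CCL7 (r = -0.90) and the glycoprotein GPNMB (r = -0.808). In MMQ cells with CAB they were higher where EGR1 was lower, MVD at 1698 against 259 in the control, CCL7 at 205 against 33.3 and GPNMB at 2267 against 233. The study listed these genes as higher in that same pair of arrays. Their direction there was thus fixed by the list, and a negative r follows in part from it. In GH3 cells MVD lay between 119 and 163, and CCL7 between 14.1 and 19, so they did not mirror EGR1 there. GPNMB went with EGR1 in GH3 cells, at 53.4 with BRC against 15.9 in the control and at 47.6 with CAB+BRC against 24 with CAB. Of the 14146 other brighter probe sets 116 had r of at least 0.9 with EGR1 and 232 had r of at most -0.9, with a highest r of 0.977.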

How the data were processed

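Total RNA of GH3 and MMQ cells was biotin-labelled and hybridized to Affymetrix rat genome arrays. The authors obtained signals from the Affymetrix Command Console software and deposited 1 linear intensity per probe set and array. The methods and the labels do not state how background was corrected, probes summarized or arrays scaled. Array medians were within 45.9 to 49.9, and no further scaling was applied. The number of arrays limits the precision.

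Groups were taken from the labels. EGR1 and the comparison genes were identified by matching printed folds to ratios of deposited intensities (relative tolerance 1e-06). Of 23 entries tried, 21 matched exactly 1 probe set. These genes, the lists and the tests were chosen with earlier results of these data known. The rule for named genes was EGR1 and the 3 genes most like it and the 3 most unlike it among those identified. Lists of immediate early genes and of cell type markers were not computed, because row names do not go with the values.

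Log2 of intensity plus 1 was used for 28295 probe sets. Differences of at least 2-fold were counted, the cutoff of the study's methods. limma 3.58.1 (R 4.3.3, lmFit, contrasts.fit and eBayes) gave two-sided tests of the 14147 probe sets whose mean log2 value exceeded the median, called at a p under 0.05 after Benjamini-Hochberg adjustment. The fits were run on simulated data with known drug effects and no interaction. These simulations do not check the error of the real fits, whose residual is the departure from additivity. No limma test is given for the CAB effect in GH3 cells and its difference between the lines, nor a sign-flip test between the lines, because they use the arrays that chose EGR1. Python 3.11.15 was used for ranks, sequences and plots. Motifs were searched in RefSeq promoter windows (GRCr8). Alternatives were quantile normalization, median centring, other pseudocounts, other filters, a variance trend and leaving out each array.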

Additional observations from a re-analysis of the deposited data

Results flagged for a closer look

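EGR1 was lower with CAB in both pairs of MMQ arrays (log2 differences of -2.57 and -3.37). It was higher with CAB in both pairs of GH3 arrays (0.93 and 0.23), so the signs were opposite. Both GH3 differences lay inside the central 99% of all probe sets, as the 457th and 3387th highest changes of 28295. The means lie -3.55 apart. The difference was not tested on arrays independent of the choice of EGR1, because both pairs in GH3 cells use an array that chose it. The culture medium differed between the lines and the time of CAB treatment in GH3 cells is not stated, so line, medium and time cannot be told apart.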

How the results depend on the processing

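No paired analysis was possible because each condition has 1 array and the labels carry no replicate numbers. The CAB effect on EGR1 in MMQ cells kept its direction and its call under 7 other settings. Log2 effects were -3.00 to -2.63 there, with adjusted p of 0.00361 to 0.00483 in limma. In the 8 fits with 1 array left out the effect was between -3.37 and -2.57. CAB minus BRC in MMQ cells kept its call under the same 7 settings (adjusted p of 0.0135 to 0.0166), and lost it in 2 of the 8 fits with 1 array left out (range -4.39 to -2.78). Both, and the BRC effect in MMQ cells, stayed on their side of the threshold without the 2 arrays that chose EGR1, a fit chosen after seeing the data. The distance of the CAB effect between the lines, given with no test, was -3.58 to -3.20 under the 7 settings and -3.96 to -3.15 with 1 array left out. A fit with 1 array left out has fewer residual degrees of freedom, and the line that lost it is assumed to vary like the other. For effects in MMQ cells, leaving out 1 GH3 array gives the same fit as leaving out the 2 that chose EGR1. Those fits are therefore not separate checks. The BRC effect in MMQ cells, the BRC effect in GH3 cells with CAB present and the excess of the latter passed under none of the settings and kept their direction in all of them. With all 8 arrays the BRC effect in GH3 cells was 1.95 and its excess over that in MMQ cells 1.33, but these include the pair that chose EGR1 and are a description. The interaction in MMQ cells was between -0.82 and -0.65, with its rank at 56 with a pseudocount of 16 and at 475 after quantile normalization, and that in GH3 cells between -0.71 and -0.68. The intensities of EGR1 in MMQ cells with CAB lie at their array medians, which limits every fold that rests on them.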
